A study of Homo sapiens with 30 samples.

Results

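The S62A line of SH-EP, which carries MYCN with serine 62 changed to alanine, was compared with parental SH-EP, both kept in DMSO. The members were chosen by label: 3 libraries of the S62A line and 3 libraries of SH-EP, 6 of the 30 RNA-Seq libraries of the series. SH-EP is an established NB cell line of mesenchymal type without MYCN amplification. The S62A line is 1 stable line, made by retroviral transfer of a mutant MYCN driven by an exogenous promoter, so the line, its selection and the mutant protein cannot be told apart. All 6 libraries came from cells given DMSO, the vehicle of the CDK inhibitor CYC065 used elsewhere in the series, for 6 hours. The 9 DMSO libraries of the other 3 MYCN lines (WT, T58A and T58A S62A, 3 libraries each, made in the same way) were used to see where S62A differed from its closest relatives. The labels do not say whether the 3 libraries of a group came from separate cultures. The p-values thus measure the spread between libraries of a group, which may be technical. That spread was estimated over the groups of all 30 libraries, those given CYC065 included.

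MYCN is a basic helix-loop-helix TF that pairs with MAX, binds E-box DNA near promoters and is best known for driving ribosome production, metabolism and division in NB with amplified MYCN. Phosphorylation of S62 by mitogen-activated and cyclin-dependent kinases stabilizes MYC proteins and primes them for phosphorylation of T58 by GSK3, after which the ubiquitin ligase FBXW7 sends them to the proteasome. An alanine at S62 removes the first of these marks. NB cells occur in an adrenergic state, held by a CRC with HAND2 and GATA3, and in a mesenchymal state, marked by TFs such as PRRX1 and FOSL1 and by matrix genes.

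Values were FPKM (fragments of a transcript, scaled by its length and by the mapped fragments of the library) as deposited. Of 26228 genes, 11575 averaged 1 FPKM or more across the 30 libraries and were tested with limma on log2(FPKM + 0.1), so a log2 change is on that scale, and it understates the change of low genes. "Rose" and "fell" are kept for genes with a Benjamini-Hochberg adjusted p under 0.05 over all tested genes. Total read numbers are unknown. The depth relative to the deepest of the 15 DMSO libraries, read from the steps between low values, was 0.526 to 0.879 in S62A and 0.68 to 0.891 in SH-EP. ERCC spike-ins, added by cell number, took 8.07 to 9.36% of the summed FPKM in S62A, 1.99 to 2.29% in SH-EP and 3.16 to 6.01% in the other MYCN lines. Scaling the libraries to equal spike-in levels moved the median change of all tested genes from 0.06 to −1.88 on the log2 scale, and the share of higher genes among those called from 57.0% to 0.398%. Changes below are therefore shares within the RNA of a library unless spike-in scaling is named. Less RNA per cell in S62A and a different amount of spike-in cannot be told apart here, nor, in bulk RNA, can fewer cells of a type and less RNA per cell. Each SH-EP library carried an index sequence also used for a library of a MYCN line, and no sequencing run was given, so the part of any difference between library pools was not tested.

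MYCN itself (chr2:16080672-16087129, GRCh37, + strand) was the check of the labels of a MYCN line against SH-EP. The MYCN level cannot tell which form of MYCN a line carries. It stood at 5.08, 6.59 and 5.51 FPKM in the 3 S62A libraries and was listed at 0 in all 3 SH-EP libraries. Reads of the retroviral copy cannot be told apart from those of the gene. The groups did not overlap, as labelled, although 3 against 3 libraries cannot give an exact permutation p below 0.1, which is the value found (two-sided). The S62A line had less MYCN RNA than every library of the other MYCN lines, which lay between 7.27 and 15.7 FPKM. The difference from the mean of these lines was −0.97 ± 0.14 on the log2 scale (SE, limma, Benjamini-Hochberg adjusted p = 5.56e-06), with an exact two-sided permutation p of 0.00909 for 3 against 9 libraries. Both p-values count libraries, whereas S62A is a single line. The 9 libraries come from lines with means of 12.9 (WT), 8.5 (T58A) and 13.5 FPKM (T58A S62A). Neither p-value therefore measures the spread between lines. Comparisons of S62A with these lines are thus between lines with different levels of MYCN RNA, whose part in them was not tested. The plot of levels by library shows MYCN beside 7 genes described below.

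**Figure D1:**
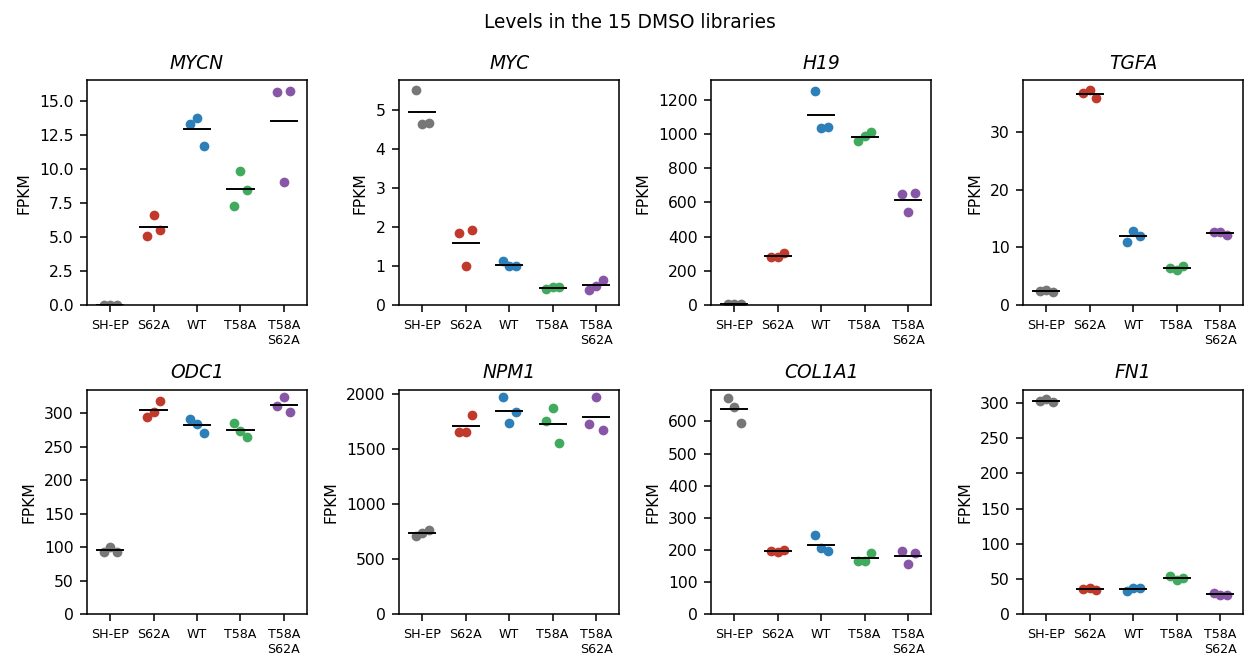
FPKM (vertical axis, from 0) of 8 genes in the 15 DMSO libraries, 1 dot per library in 5 groups, with a bar at the mean of each group. MYCN is at 0 in SH-EP and lowest among the MYCN lines in S62A, TGFA is highest in S62A, and H19, ODC1 and NPM1 are higher and MYC, COL1A1 and FN1 lower in S62A than in SH-EP, of which ODC1 and NPM1 turn to lower with spike-in scaling.

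The paralog MYC and the partners of MAX moved with the line. MYC, at chr8:128747680-128755197, was at 1.85, 1.01 and 1.93 FPKM in S62A and at 5.51, 4.64 and 4.68 FPKM in SH-EP. It fell by 1.62 ± 0.17 on the log2 scale (SE, limma adjusted p = 2.65e-08). MYC was 1.19 ± 0.14 higher in S62A than in the other MYCN lines (adjusted p = 4.63e-07), where it lay between 0.377 and 1.13 FPKM, although this difference was 0.35 with spike-in scaling and not past the threshold. Of 12 tested genes of the network 7 rose and 4 fell, while with spike-in scaling MYCN was higher and 11 were lower. MAX, the common partner, rose by 0.35 ± 0.09 from 19.2, 20.8 and 19.8 FPKM to 24.4, 27.0 and 24.8 FPKM, a change of −1.62 with spike-in scaling. The MAX-binding repressors MXI1 (1.18 ± 0.17), MXD1 (1.02 ± 0.16), MNT (0.78 ± 0.13) and MGA (0.74 ± 0.15) rose too, and all 4 were below 0 with spike-in scaling. The repressors MXD3 and MXD4 fell, by 1.03 and 0.51 on the log2 scale.

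Between S62A and SH-EP, 3583 genes rose and 2708 fell, 31% and 23.4% of those tested, and 54.3% changed in either direction. The falls were the larger changes: 750 genes fell and 388 rose at least 2-fold, and 72 fell and 22 rose at least 8-fold. In 67.4% of the tested genes the 3 libraries of one group all lay above the 3 of the other. With so many genes called, a gene or list is read here by its size and by its share against these percentages. With spike-in scaling 44 genes were higher (0.38%) and 11006 lower (95.1%).

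The largest rises included RNAs that SH-EP barely held. H19 (chr11:2016396-2025782), an imprinted noncoding RNA of fetal tissue, was at 283, 281 and 302 FPKM in S62A and at 6.01, 4.34 and 6.61 FPKM in SH-EP, a 51.0-fold higher level (log2 5.67 ± 0.11, limma adjusted p = 3.82e-22). Its imprinted neighbour IGF2, a growth factor, went from between 0.839 and 1.25 FPKM to between 3.96 and 4.54 FPKM (1.94 ± 0.13), a rise that spike-in scaling reduced to 0.07. TGFA (chr2:70674416-70781325), a ligand of the EGF receptor, was at 36.8, 37.3 and 35.9 FPKM against 2.45, 2.56 and 2.21 FPKM, 14.7-fold higher (3.88 ± 0.08). Groups without overlap were a condition for ranking H19 and TGFA, and both were also higher with spike-in scaling (3.72 and 1.95). SAA1, an acute phase protein whose near-identical paralogs make its reads uncertain, was at 18.7, 16.8 and 23.4 FPKM against 0.246, 0.252 and 0.322 FPKM. The neuronal genes BEX1 and SNCG rose by 3.70 ± 0.27 and 3.64 ± 0.18, and EEF1A2, the elongation factor form of neurons and muscle, by 2.91 ± 0.16. RARRES2 (chemerin), the adenosine receptor ADORA2B, the TFIID subunit TAF4B, the kinase STK26 and KCTD15 rose by 2.39 to 3.28. These 8 genes stayed above 0 with spike-in scaling, RARRES2 without passing the threshold.

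The largest falls were of matrix and membrane genes that SH-EP expressed at moderate levels and S62A almost lacked. ISLR (chr15:74466051-74469213), a secreted leucine-rich repeat protein of mesenchymal cells, was at 72.9, 74.6 and 70.8 FPKM in SH-EP and at 0.300, 0.357 and 0.512 FPKM in S62A (−7.24 ± 0.38, adjusted p = 1.1e-13). ECM1, a matrix glycoprotein, went from 49.0, 51.4 and 52.0 FPKM to 2.61, 1.26 and 2.19 FPKM. Non-overlapping libraries were a condition for ranking these genes, so the gap between the groups in ISLR and ECM1 is no separate support. The small leucine-rich proteoglycan ASPN, the sialomucin EMCN, the potassium channel KCNK2, the ether lipid enzyme AGMO, the transporter ABCA8, the pericyte and stromal protein CD248, CAMK1G, BRINP3, WISP1 and the collagen COL21A1 all stood between 5.16 and 15.5 FPKM in SH-EP and at or below 0.864 FPKM in every S62A library. LINC00613, at 6.49 to 7.10 FPKM in SH-EP, was listed at 0 in all 3 S62A libraries.

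Growth genes rose as shares of the library. The ribosome is built in the nucleolus from RNAs and proteins whose genes are classical targets of MYC proteins, and 53 of the 72 ribosome biogenesis genes rose and 4 fell (73.6% and 5.56%, beside 31% and 23.4% of all genes), with a median of 0.39 beside 0.06 for all genes, while with spike-in scaling 0 were higher and 71 lower. NPM1, the nucleolar chaperone nucleophosmin, was at 1654, 1661 and 1813 FPKM in S62A and at 713, 740 and 763 FPKM in SH-EP (1.21 ± 0.07, adjusted p = 1e-12, −0.76 with spike-in scaling). NCL, nucleolin, was at 647, 603 and 698 FPKM against 312.5, 341 and 323 FPKM (0.99 ± 0.04, −0.98 with spike-in scaling). In both genes every S62A library lay above every SH-EP library as deposited. POLR3G, a subunit of RNA polymerase III, rose by 1.49 ± 0.15, and the processing factors RRP9 and WDR43 by 1.27 ± 0.08 and 1.23 ± 0.08, and these 3 were at −0.45, −0.69 and −0.74 with spike-in scaling. Protein synthesis genes followed at smaller sizes: 42 of 83 cytosolic ribosomal proteins rose and 1 fell (median 0.20), 52 of 75 mitochondrial ribosomal proteins rose and 11 fell (0.37), 30 of 46 translation factors rose and 3 fell (0.28), and 14 of 22 aminoacyl-tRNA synthetase genes rose and 3 fell (0.27), while with spike-in scaling 0 genes of these 4 lists were higher. Near-identical copies make the level of single ribosomal protein genes uncertain. EIF3B, a scaffold of the initiation factor eIF3, rose from 110, 116 and 115 FPKM to 201, 186 and 209 FPKM (0.81 ± 0.04, −1.16 with spike-in scaling), and MRPS28 of the mitochondrial small subunit by 1.08 ± 0.13, −0.88 with spike-in scaling. MRPS6 went the other way, from 170, 159 and 168 FPKM to 93.5, 79.6 and 90.2 FPKM (−0.92 ± 0.06).

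Most genes of several metabolic lists rose as well, again only without spike-in scaling. ODC1 (chr2:10580094-10588453), ornithine decarboxylase and the rate-limiting enzyme of polyamine synthesis, was at 294, 302 and 318 FPKM in S62A and at 92.8, 101 and 93.3 FPKM in SH-EP, 3.18-fold higher (1.67 ± 0.05, adjusted p = 1.87e-18), and at −0.30 with spike-in scaling. Of the 9 tested polyamine genes 4 rose and 2 fell, with a median of 0.07, near that of all genes, and 0 were higher with spike-in scaling. Of 32 nucleotide and one-carbon genes 26 rose and 2 fell (median 0.46), and with spike-in scaling 0 were higher and 32 lower. The mitochondrial folate enzyme MTHFD1L rose by 1.03 ± 0.07 and the purine enzyme PAICS by 0.95 ± 0.04, and these were at −0.94 and −1.02 with spike-in scaling. IMPDH2, which commits purines to guanine nucleotides, was an exception and fell from 182, 184 and 184 FPKM to 104, 106 and 112 FPKM (−0.77 ± 0.05). Amino acid transport genes (12 of 15 rose, 2 fell), serine synthesis and ATF4 target genes (8 of 14 rose, 0 fell) and chaperones (17 of 23 rose, 1 fell) had medians of 0.44, 0.55 and 0.53, and of −1.53, −1.36 and −1.44 with spike-in scaling. Examples are the glutamine transporter SLC38A1 (1.27 ± 0.08), the stress factors ATF3 (1.44 ± 0.11) and DDIT4 (1.28 ± 0.08), the serine enzyme PSAT1 (1.00 ± 0.06) and the mitochondrial chaperonin HSPE1 (1.08 ± 0.08), all 5 below 0 with spike-in scaling. In glycolysis 15 of 25 genes rose and 4 fell, while 0 were higher with spike-in scaling, and genes of its entry steps went both ways. Hexokinase HK2 rose by 1.47 ± 0.09, the lactate transporter SLC16A1 by 1.02 ± 0.07 and lactate dehydrogenase LDHA by 0.88 ± 0.06, all 3 below 0 with spike-in scaling. The glucose transporter SLC2A3 fell from 4.83, 4.15 and 4.61 FPKM to 0.59, 0.584 and 0.315 FPKM, and PFKFB3, which makes the activator of phosphofructokinase, from 61.6, 61.8 and 61.95 FPKM to 23.3, 23.6 and 24.7 FPKM.

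Since MYC and MAX proteins bind the E-box CACGTG, which is its own reverse complement and so reads the same on both strands, the promoter windows of the rising growth genes were searched for these letters. The windows run from 250 bases before to 50 bases after the RefSeq start on GRCh38.p14. Of all 27305 windows in the table, 7.43% held the motif. It was present in 13.9% of the 2903 windows of genes that rose and in 7.27% of the 2172 windows of genes that fell (81.0% and 80.2% of the genes matched by symbol). Of the tested genes not past the threshold fewer, 76.4%, were matched, and 9.93% of their 4037 windows held it, as did 10.6% of the 9112 windows of all tested genes that were matched. Among lists it was in 39.0% of the 59 matched ribosome biogenesis genes and 21.4% of the 28 nucleotide and one-carbon genes. It was in only 4.48% of the 67 cytosolic and 8.96% of the 67 mitochondrial ribosomal protein genes. Of the 25 matched lysosomal genes 36% held it, although 18 of the 37 tested genes of that list fell and 9 rose. S62A was also contrasted with the other 3 MYCN lines, as described below. There the motif was in 13.5% of the 1637 windows of lower genes and 8.76% of the 1427 windows of higher genes. A match is a run of letters and not a measured binding site. The sequences below are printed for the 4 rising members of the ribosome biogenesis list, and then of the nucleotide list, with the largest change among those with the motif before the start. They are given 5′ to 3′ on the strand of the gene with the E-box in capitals.
UTP20, chr12:101280055-101280104, + strand, motif beginning 10 bases before the start: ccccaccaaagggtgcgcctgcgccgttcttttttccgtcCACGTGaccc
EBNA1BP2, chr1:43172762-43172820, - strand, 237 bases before: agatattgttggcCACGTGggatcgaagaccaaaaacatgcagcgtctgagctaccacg
UTP18, chr17:51260417-51260502, + strand, 89 bases before: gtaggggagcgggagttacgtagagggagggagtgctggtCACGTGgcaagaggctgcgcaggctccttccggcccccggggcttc
CIRH1A, chr16:69132593-69132648, + strand, 16 bases before: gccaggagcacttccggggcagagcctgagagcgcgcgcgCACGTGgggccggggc
MTHFD1L, chr6:150866292-150866377, + strand, 154 bases before: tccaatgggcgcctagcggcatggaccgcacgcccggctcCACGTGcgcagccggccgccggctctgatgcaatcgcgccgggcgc
PPAT, chr4:56435752-56435837, - strand, 182 bases before: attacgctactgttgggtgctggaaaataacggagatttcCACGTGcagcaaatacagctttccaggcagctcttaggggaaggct
DHODH, chr16:72008545-72008630, + strand, 159 bases before: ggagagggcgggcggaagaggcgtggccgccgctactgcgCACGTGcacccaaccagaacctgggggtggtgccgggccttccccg
MTHFD1, chr14:64388298-64388352, + strand, 15 bases before: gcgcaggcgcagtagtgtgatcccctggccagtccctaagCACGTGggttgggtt

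The 8 genes whose E-boxes are shown were chosen among genes that rose, and their rises were of moderate size. The rRNA processing genes UTP20, EBNA1BP2, UTP18 and CIRH1A rose by 0.80 ± 0.08, 0.72 ± 0.06, 0.72 ± 0.05 and 0.45 ± 0.06. UTP20, for example, was at 21.2, 19.9 and 19.6 FPKM in S62A and at 11.9, 11.9 and 11.1 FPKM in SH-EP. PPAT, the first enzyme of purine synthesis, DHODH of pyrimidine synthesis and the folate enzyme MTHFD1 rose by 0.75 ± 0.08, 0.63 ± 0.13 and 0.54 ± 0.05. With spike-in scaling all 8 were lower, by between −1.52 and −0.94.

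Most genes of DNA replication rose as shares of the library. Of 40 licensing and fork genes 35 rose and 0 fell (median 0.44), while with spike-in scaling all 40 were lower. The primase subunit PRIM1 was at 34.4, 38.8 and 39.8 FPKM against 17.9, 18.0 and 17.8 FPKM (1.07 ± 0.10), the helicase subunit MCM7 rose by 0.69 ± 0.05 and the clamp PCNA by 0.62 ± 0.05, all 3 below 0 with spike-in scaling. Of 23 G1/S genes 15 rose and 3 fell, while 0 were higher with spike-in scaling. Cyclin E1, CCNE1, rose from 4.57, 3.70 and 4.11 FPKM to 11.9, 11.3 and 11.7 FPKM (1.48 ± 0.13, −0.47 with spike-in scaling), while the CDK inhibitor CDKN2C fell by 0.69 on the log2 scale. Of 40 mitotic genes 12 rose and 9 fell, with a median of 0.07, near that of all genes. AURKA, the kinase known to bind and stabilize MYCN, rose from 64.9, 62.02 and 63.3 FPKM to 139, 135 and 134 FPKM (1.10 ± 0.08, adjusted p = 1.43e-11), and was −0.87 with spike-in scaling. Cyclin B1, CCNB1, rose by 0.54 ± 0.05 (−1.43 with spike-in scaling), and the motor KIF11 fell by 0.42 on the log2 scale.

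Targets of p53 rose: 19 of 28 were higher and 2 lower, with a median of 0.50 (−1.47 with spike-in scaling). AEN, a p53-induced nuclease, rose by 1.45 ± 0.07, from 11.8, 11.6 and 11.6 FPKM to 30.9, 34.8 and 30.7 FPKM. The repair gene DDB2 rose by 1.23 ± 0.13 and MDM2, the ligase that degrades p53, by 0.92 ± 0.09, and AEN, DDB2 and MDM2 were all below 0 with spike-in scaling. In the BCL2 family 5 of 14 genes rose and 3 fell, near the background, and 0 were higher with spike-in scaling. They included the death activators BID (0.89 ± 0.06) and BAX (0.50 ± 0.10), both below 0 with spike-in scaling.

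Matrix genes fell, in number and in size. Spike-in scaling lowers every S62A gene and so makes each of these falls larger by its construction. Of 18 tested collagen chains 16 fell and 1 rose (88.9% and 5.56%, beside 23.4% and 31% of all genes), with a median of −0.93. The chains of the main fibrils fell together. COL1A1 (chr17:48261462-48278993) went from 673, 646 and 594.5 FPKM to 197, 195 and 201 FPKM, 3.22-fold lower (−1.69 ± 0.09, adjusted p = 5.6e-14). COL3A1 went from 531, 522 and 542 FPKM to 163, 182 and 166 FPKM (−1.64 ± 0.04), and COL5A1 from 24.01, 24.1 and 22.8 FPKM to 5.64, 6.09 and 5.17 FPKM (−2.05 ± 0.09). No library of either group came near the other group in these 3 genes. COL27A1 rose by 0.71 ± 0.11, from a level of 1.46 to 1.68 FPKM in SH-EP (−1.18 when scaled to spike-ins), and COL7A1 was at 1.17, 1.26 and 1.06 against 1.12, 1.02 and 1.14 FPKM. Among 29 matrix glycoproteins and proteoglycans 21 fell and 7 rose, with a median of −1.11. FN1 (chr2:216225163-216300796), fibronectin, fell 8.37-fold, from 302, 305 and 301 FPKM to 36.1, 38.1 and 34.2 FPKM (−3.07 ± 0.06, adjusted p = 1.84e-22). SPARC (chr5:151040657-151066536), a collagen-binding glycoprotein, fell 8.62-fold, from 477, 476 and 482 FPKM to 56.9, 53.7 and 55.6 FPKM (−3.11 ± 0.04, adjusted p = 9.7e-27). The proteoglycan decorin, DCN, fell by 3.23 on the log2 scale.

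Genes that cut, protect or bind the matrix fell in like manner. Of 22 matrix proteases and inhibitors 16 fell and 2 rose, and of 17 integrins and laminins 14 fell and 0 rose, with medians of −0.54 and −0.90. TIMP3, a matrix-bound inhibitor of metalloproteinases, went from 188, 193 and 188 FPKM to 20.4, 19.9 and 20.9 FPKM (−3.21 ± 0.05). The plasminogen activator PLAT went from 583, 579 and 581 FPKM to 126, 126 and 135 FPKM (−2.17 ± 0.04). In both genes the libraries of a group lay close together and the groups far apart. The collagen receptor chain ITGA1 fell by 2.15 on the log2 scale, and the laminin chains LAMB3 and LAMC1 by 2.09 and 1.44. Of 28 contractile genes 16 fell and 6 rose. The actin-binding transgelin, TAGLN, fell from 53.8, 50.7 and 47.3 FPKM to 6.23, 4.87 and 7.40 FPKM (−3.03 ± 0.13), and CALD1 and smooth muscle actin ACTA2 fell by 1.63 and 1.46.

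**Figure D2:**
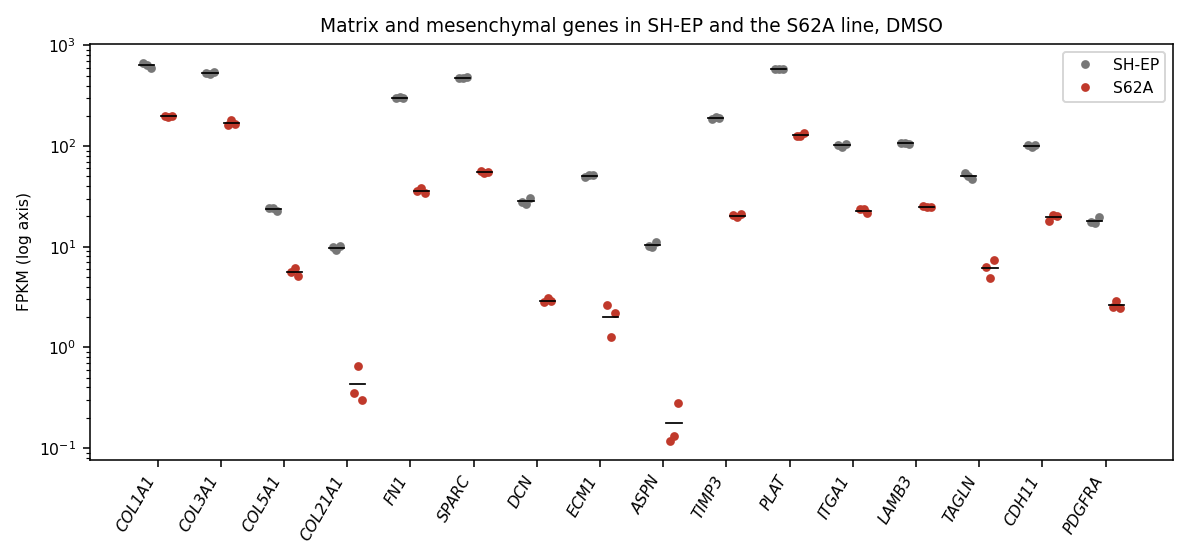
FPKM on a log axis of 16 matrix and mesenchymal genes in the 3 SH-EP and 3 S62A libraries (DMSO), dots for libraries and black bars for group means. In SPARC and FN1, at 476 to 482 and 301 to 305 FPKM in SH-EP, the S62A dots lie at 53.7 to 56.9 and 34.2 to 38.1 FPKM, and the libraries of a group nearly coincide.

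Against the markers of the NB cell states, mesenchymal effector genes fell and mesenchymal TFs were mixed. Of 38 tested mesenchymal effectors 34 fell and 2 rose (89.5% and 5.26%, 0 higher with spike-in scaling), with a median of −0.70, and their summed level was 8431 to 8882 FPKM in S62A and 15100 to 15670 FPKM in SH-EP. PDGFRA, a receptor of fibroblasts, went from 17.6, 17.1 and 19.9 FPKM to 2.52, 2.91 and 2.45 FPKM, and the cadherin CDH11 from 102, 98.7 and 103 FPKM to 18.2, 20.8 and 20.1 FPKM. S100A4, a calcium-binding protein of fibroblasts, fell from 1963, 2148 and 2212 FPKM to 743, 742 and 840 FPKM (−1.44 ± 0.07). Among 26 mesenchymal TFs 11 fell and 4 rose (0 higher with spike-in scaling), and the summed levels were close, 465.9 to 480.9 FPKM in S62A and 499.2 to 508.8 FPKM in SH-EP. SNAI2 fell from 20.5, 21.9 and 21.6 FPKM to 7.11, 8.23 and 6.97 FPKM (−1.51 ± 0.12), PRRX1 from 110, 107 and 117 FPKM to 56.2, 57.1 and 55.5 FPKM (−0.98 ± 0.07) and ZEB1 by 0.71 on the log2 scale. ZNF217, RUNX1 and FOSL1 rose by 0.89 ± 0.11, 0.76 ± 0.15 and 0.69 ± 0.08, all below 0 with spike-in scaling, and TWIST1 was at 21.2, 19.8 and 21.8 FPKM against 20.5, 23.3 and 23.9 FPKM.

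Most adrenergic genes were too low to be tested. Among those tested, the share of TFs that fell was near that of all genes, while most effectors fell. The summed level of the adrenergic TFs was 152.8 to 164.2 FPKM in S62A and 227.2 to 231 FPKM in SH-EP, whereas that of the adrenergic effectors was higher in S62A, at 655.6 to 676.3 against 562.1 to 570.4 FPKM. Of the 36 effectors 27 averaged under 1 FPKM in S62A and 24 in SH-EP. The effector sum thus rests on few genes and does not show a rise of the list. Of 20 adrenergic TFs 8 were tested, and 1 rose and 2 fell (12.5% and 25%, beside 31% and 23.4% of all genes, and 0 higher with spike-in scaling). PHOX2A, HAND1, TFAP2B and INSM1 were listed at 0 in all 6 libraries, as were the effectors DBH, CHGA and STMN2. HAND2 fell from 78.1, 83.9 and 83.4 FPKM to 48.3, 45.8 and 44.1 FPKM (−0.83 ± 0.08, adjusted p = 1.82e-09) and TBX2 by 0.61. GATA2 rose by 0.31 ± 0.11 (adjusted p = 0.0244, below 0 with spike-in scaling), a call lost at 0.28 without S62A library 0 and at 0.27 and 0.31 without SH-EP libraries 1 and 2, and GATA3 was at 9.45, 8.89 and 9.46 FPKM against 9.33, 8.05 and 8.83 FPKM. Of 11 tested adrenergic effectors 7 fell and 2 rose (63.6% and 18.2%, and 0 higher with spike-in scaling), among them the neurofilament NEFL, which fell by 1.39 on the log2 scale. CHGB rose from between 0.362 and 0.700 to between 0.891 and 2.32 FPKM, a change of −0.48 with spike-in scaling.

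Few markers of other cell types passed the filter, and those called changed in both directions. Their part in the changes above was not tested. Their summed levels in S62A and SH-EP were 12.1 to 14.8 and 20.7 to 21.9 FPKM for Schwann and glial markers (3 of 11 tested, 1 fell), 6.14 to 7.64 and 4.24 to 5.32 FPKM for melanocyte markers (2 of 6 tested, 1 rose), 7.08 to 8.18 and 17.4 to 21.4 FPKM for immune markers (1 of 10 tested, CD68, which fell), and at most 0.201 and 0.331 FPKM for endothelial markers (0 of 7 tested). Epithelial markers summed to 794.9 to 858.3 and 636.9 to 697.1 FPKM, of which the keratins KRT8 and KRT18 of simple epithelia and many cultured lines held nearly all (2 of 4 tested rose, 1 fell). With spike-in scaling 0 markers of these 5 lists were higher. SOX10, CDH1, MLANA, TYR, CD3E and KDR, which define these types, were listed at 0 in all 6 libraries. S100B fell from 5.01, 5.09 and 6.34 FPKM to 0.438, 1.17 and 0.691 FPKM.

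Signalling genes changed in both directions. Of 24 immediate early and ERK feedback genes 13 rose and 7 fell, with a median of 0.29 (−1.67 with spike-in scaling). FOS, a subunit of AP-1, rose from 9.72, 11.1 and 9.39 FPKM to 70.8, 58.5 and 59.3 FPKM (2.63 ± 0.09, adjusted p = 3.76e-17), its paralog FOSB by 3.09 ± 0.16 and EGR1 by 1.59 ± 0.06. FOS and FOSB kept a higher level with spike-in scaling (0.67 and 1.36), and EGR1 did not (−0.37). The ERK phosphatase DUSP4 rose by 1.77 ± 0.11 (−0.17 with spike-in scaling). Among 20 receptor tyrosine kinases 7 rose and 11 fell, and 1 was higher with spike-in scaling. The kinase-inactive EPHB6 rose from 0.982, 1.03 and 1.04 FPKM to 6.37, 6.19 and 6.84 FPKM (2.56 ± 0.15, 0.68 with spike-in scaling), IGF1R by 1.42 ± 0.15 (−0.45 with spike-in scaling), while EPHB2 fell by 1.74 on the log2 scale. In the TGF-beta and BMP pathway 9 of 30 genes rose and 6 fell, near the background, and 0 were higher with spike-in scaling. The receptor TGFBR2 and the latency protein LTBP1 fell, by 1.32 and 1.56, whereas PMEPA1, a target and feedback inhibitor of the pathway outside that list, rose by 2.48 ± 0.25 (0.57 with spike-in scaling). Of 22 YAP and TEAD targets 5 rose and 6 fell (22.7% and 27.3%), near the background, and 0 were higher with spike-in scaling. ANKRD1 rose by 1.06 ± 0.08 (−0.91 with spike-in scaling) and FSTL1 fell by 1.59. In the Notch pathway 2 of 8 genes rose and 4 fell, and 0 were higher with spike-in scaling.

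Interferon and antigen presentation genes fell. Of 26 tested interferon-stimulated genes 20 fell and 0 rose (76.9% lower, median −0.82). IFI44 went from 12.5, 12.5 and 14.3 FPKM to 1.02, 0.896 and 0.844 FPKM (−3.70 ± 0.36), and IFI35 and IFIT1 fell by 2.13 and 1.78. Of 17 MHC class I and antigen processing genes 11 fell and 2 rose. HLA-B, whose reads are shared with near-identical paralogs and are uncertain, was at 3.77, 4.29 and 4.93 FPKM in SH-EP and at 0.417, 0 and 0.0783 FPKM in S62A. The immunoproteasome subunit PSMB9 fell by 1.97 and HLA-E by 0.79, while beta-2-microglobulin, B2M, was at 454, 541 and 481 FPKM against 514, 504 and 531 FPKM. Of 21 cytokine and NF-kB target genes 6 rose and 6 fell (28.6% each), near the background, and 0 were higher with spike-in scaling. The adhesion molecule VCAM1 fell by 1.83 and the chemokine CXCL8 fell by 1.30.

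The remaining lists held genes that changed in each direction, and of the lysosomal, lipid, oncofetal and Polycomb lists 0 genes were higher with spike-in scaling. Of 37 lysosomal genes 18 fell and 9 rose, among them GPNMB, a membrane glycoprotein, which fell by 2.59 on the log2 scale. Of 32 cholesterol and fatty acid genes 14 fell and 4 rose, including SREBF2, the TF that controls the pathway (12.5, 13.1 and 12.4 FPKM to 5.76, 6.22 and 6.06 FPKM), and MSMO1. Of 12 imprinted genes 3 rose and 6 fell, so the rise of H19 and IGF2 was not shared by the list. Of 10 oncofetal RNA-binding and HMGA genes 4 rose and 2 fell, and the HMGA pair went opposite ways as deposited: HMGA1 rose from 219, 217 and 208 FPKM to 390, 413 and 407 FPKM (−1.06 with spike-in scaling) and HMGA2 fell from 118, 118 and 119 FPKM to 59.8, 58.9 and 56.1 FPKM. LIN28B, which blocks let-7 maturation, rose by 1.45 ± 0.27 (−0.39 with spike-in scaling). Polycomb genes (8 of 26 rose, 3 fell) were near the background. The plot of gene lists shows these groups side by side.

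**Figure D3:**
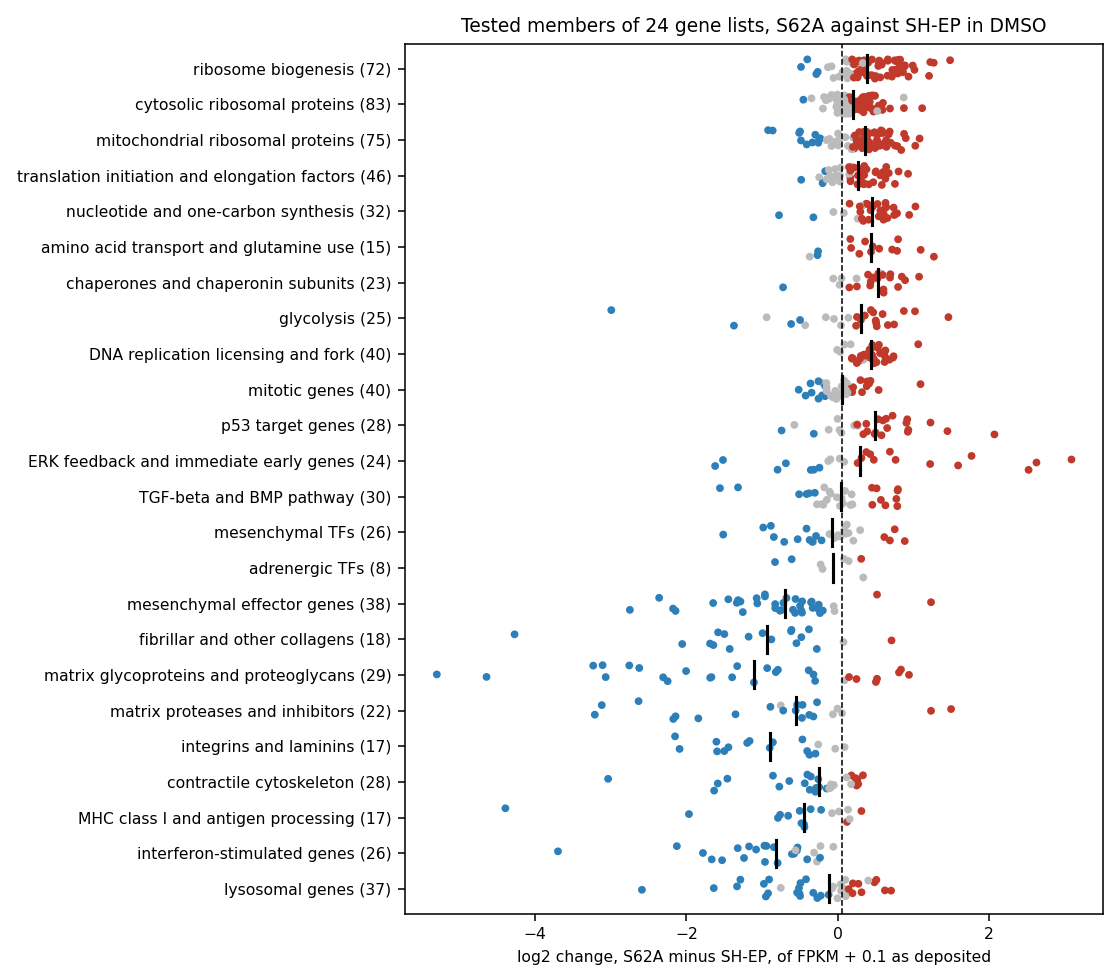
Log2 change, S62A minus SH-EP (horizontal axis, FPKM + 0.1 as deposited), of every tested gene of 24 lists, red where higher, blue where lower and grey where not past the threshold, with a black tick at the median of the list and a dashed line at 0.06, the median of all tested genes. Growth and replication lists lie right of the line, and would lie left of 0 with spike-in scaling, while collagens, matrix glycoproteins, integrins and interferon-stimulated genes lie left of it.

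To see where S62A differed from its relatives, it was contrasted directly with the mean of the other 3 MYCN lines, without SH-EP. In this contrast 1760 genes were higher and 2019 lower (15.2% and 17.4% of those tested, 32.6% in all), and 35 were higher and 10527 lower with spike-in scaling, so "higher" in this contrast is a share of the library. Among the lists in which most called genes rose against SH-EP as deposited, the ribosomal ones held more genes below than above the other lines: 31 of 72 ribosome biogenesis genes were lower and 4 higher (median −0.12), 39 of 75 mitochondrial ribosomal proteins lower and 2 higher (−0.19), and 23 of 83 cytosolic ribosomal proteins lower and 1 higher (−0.12). Other such lists went either way. Of 46 translation factors 5 were higher and 9 lower (−0.02), and of 25 glycolysis genes 3 and 4 (−0.01). Both lists were near the 15.2% higher and 17.4% lower of all tested genes. Of 22 aminoacyl-tRNA synthetases 2 were higher and 7 lower (−0.06), and of 14 serine synthesis and ATF4 targets 2 and 5 (−0.08). Of 23 chaperones 9 were higher and 4 lower (0.10), and of 40 DNA replication genes 11 and 2 (0.06). Of 15 amino acid transport genes 5 went in each direction (0.04). Of 32 nucleotide and one-carbon genes 7 were higher and 8 lower (−0.02). NPM1, NCL and ODC1 differed by −0.07, 0.00 and 0.07, none past the threshold. Genes of the mesenchymal side differed in both directions: 16 of 38 mesenchymal effectors were higher and 8 lower, 11 of 22 matrix proteases and inhibitors higher and 4 lower, and 8 of 17 integrins and laminins higher and 2 lower. Of 18 collagens 2 were higher and 10 lower, and FN1 and COL1A1 differed by −0.05 and 0.07, not past the threshold. Of 28 p53 targets 15 were higher and 3 lower, of 37 lysosomal genes 18 higher and 3 lower, and of 30 TGF-beta and BMP genes 16 higher and 4 lower. AURKA was 0.63 ± 0.06 higher than in the other lines, and HAND2 and H19 were lower, by −0.73 ± 0.06 and −1.60 ± 0.09.

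In 15.6% of the tested genes all 3 S62A libraries lay outside the range of the 9 other MYCN-line libraries. Of the 8 largest differences upward, CGA led. CGA (chr6:87795216-87804824), the alpha subunit of the glycoprotein hormones, was at 113, 131 and 118 FPKM in S62A, at 23.1 to 25.3 FPKM in WT, at most 1.06 FPKM in T58A and at 0 in T58A S62A. SH-EP itself held 54.2, 65.3 and 50.6 FPKM, below every S62A library as deposited. The S62A level was not called different from SH-EP (1.09 ± 0.63, limma adjusted p = 0.149), except with a pseudocount of 1 (1.08). With spike-in scaling the change was −0.88. The SE rests on the spread in all groups, and T58A was at 0, 1.06 and 1.03 FPKM. The missing call therefore does not show equal levels. The secretogranin SCG2 and the retinal dehydrogenase ALDH1A1 were at 67.5 to 73.2 and 34.3 to 39.5 FPKM in S62A, at 76.3 to 80.0 and 99.5 to 101 FPKM in SH-EP, and at no more than 32.5 and 15.1 FPKM in the other lines. In SCG2 and ALDH1A1 the mean of S62A was nearer to that of SH-EP than the means of the other lines were. TGFA, EPHB6, PMEPA1, MAGEA11 and periostin (POSTN) were higher in S62A than in SH-EP and than in the other lines. POSTN, a matrix protein, was at 232, 242 and 212 FPKM in S62A, at 157, 158 and 163 FPKM in SH-EP (0.52 ± 0.08, −1.45 when scaled to spike-ins) and at 34.0 to 122 FPKM in the other lines. MAGEA11, a cancer-testis antigen, was at 11.9, 13.4 and 12.5 FPKM against 0.799 to 7.74 FPKM in the other lines.

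Of the 8 largest differences downward, SLIT2 (chr4:20253528-20622184), a secreted guidance ligand of ROBO receptors, stood out from all groups. It was at 0.874, 0.902 and 0.795 FPKM in S62A, at 8.90, 8.87 and 8.45 FPKM in SH-EP and at 7.996 to 19.1 FPKM in the other lines (−3.53 ± 0.06, adjusted p = 4.7e-23). The PDZ and LIM protein PDLIM1 and ECSCR, a membrane protein of endothelium, were also lower in S62A than in both, although PDLIM1 did not exceed 1.11 FPKM in SH-EP. ECSCR was at 0.151, 0 and 0 FPKM against 9.65, 5.93 and 8.58 FPKM in SH-EP. The other 5 were lower in SH-EP and in S62A than in the other lines. TUBA1C, an alpha-tubulin with near-identical paralogs and so uncertain, was at 27.5, 33.5 and 24.8 FPKM in S62A, at 6.88 to 9.52 FPKM in SH-EP (−0.13 when scaled to spike-ins) and at 221 to 317 FPKM in the other lines. The phosphatase PTPN7 was at 1.74, 2.35 and 2.08 FPKM against 14.1 to 28.3 FPKM, and the proteoglycan CSPG4 at 1.14, 1.70 and 1.12 FPKM against 8.97 to 15.4 FPKM. CDC42EP1 and the GTPase RAB34 were at or below 1.46 FPKM in S62A and at or below 0.235 FPKM in SH-EP, while the other lines held 10.1 to 28.5 and 2.60 to 45.0 FPKM.

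**Figure D4:**
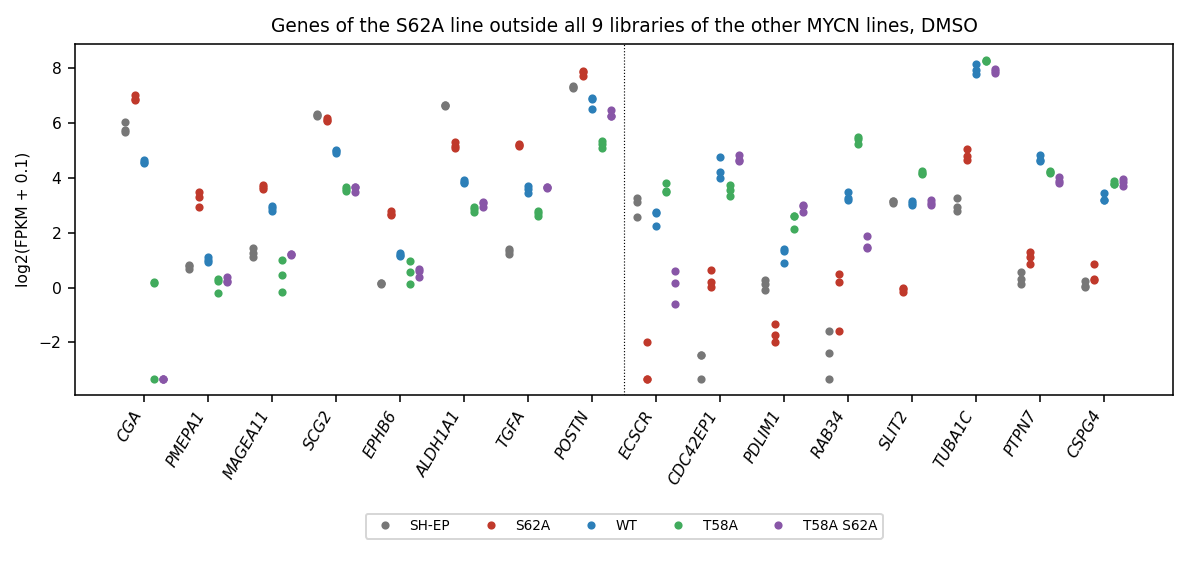
Log2(FPKM + 0.1) of the 16 genes of the S62A line that differed most from the other MYCN lines with no overlap, for all 15 DMSO libraries, 8 genes above the other lines left of the dotted line and 8 below right of it. The S62A dots of CGA, at 113 to 131 FPKM, lie somewhat above those of SH-EP, and those of SLIT2, at 0.795 to 0.902 FPKM, lie below every other library.

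The changes were not spread evenly over the chromosomes. The 551 tested genes of 1q had a median of −0.41 against SH-EP, with 58.8% lower and 7.99% higher, beside 0.06 for all tested genes, and each S62A library gave −0.40 to −0.42. Against the other MYCN lines the 1q median was −0.21, and those lines stood at −0.14 (WT), −0.09 (T58A) and −0.31 (T58A S62A) against SH-EP. Along 1q the median was lowest at −0.60 in the window next to the centromere (184 genes, 134 lower and 5 higher) and between −0.47 and −0.15 in the 5 windows beyond it. MRPL24, S100A4, ECM1 and LAMC1, all members that fell, are among the genes of this arm. Without 1q, 3539 of 11024 genes rose and 2384 fell. The 285 genes of 4q had a median of −0.21 (42.1% lower) and also −0.21 against the other lines, the 428 genes of 11q −0.14 (38.3% lower), and the 43 genes of 18p 0.34 (53.5% higher). All other arms lay between −0.01 and 0.19. With spike-in scaling the median of every arm was below 0.

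**Figure D5:**
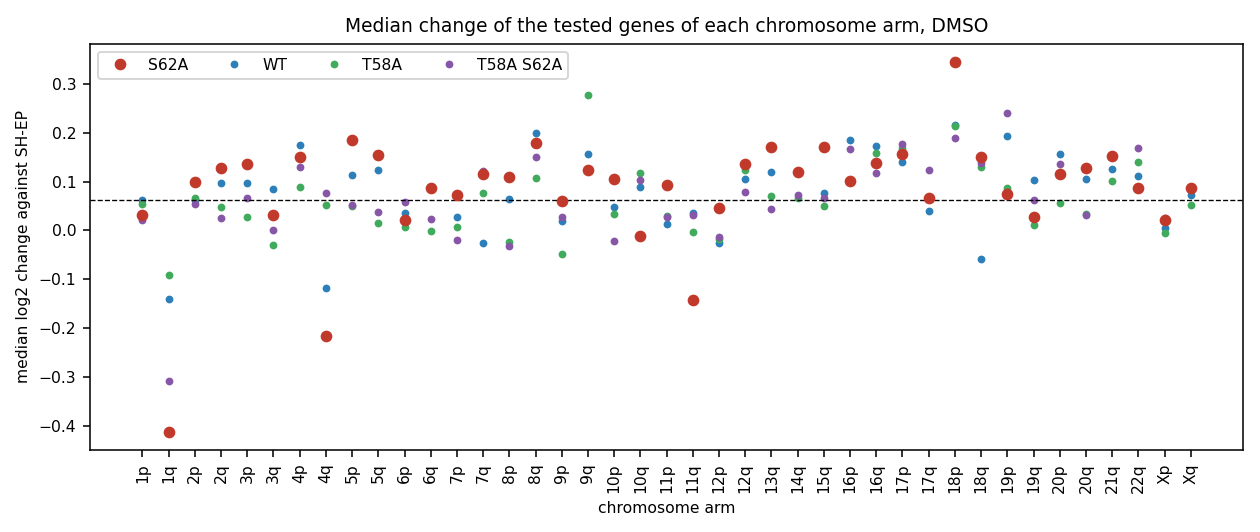
Median log2 change against SH-EP (vertical axis) of the tested genes of each chromosome arm (horizontal axis) for the 4 MYCN lines in DMSO, with a dashed line at 0.06, the median of all tested genes in S62A. The S62A dot is lowest at 1q (−0.41), followed by 4q and 11q, and highest at 18p, and each would be below 0 with spike-in scaling.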

How the data were processed

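RNA-Seq of SH-EP and of its 4 MYCN lines (WT, T58A, S62A and T58A S62A), in DMSO or CYC065, gave 30 libraries, 3 per group, grouped by the labels. Per the labels and the study's methods, ERCC spike-ins were added to RNA according to cell number, poly(A) RNA went into strand-specific libraries, and HISAT2 placed the reads on hg19/GRCh37. From these alignments the authors derived FPKM with Cufflinks 2.2.1. The deposited FPKM are not scaled to spike-ins, the annotation is not given in the sources used here, and 0 columns lacked a sample.

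Genes averaging 1 FPKM or more were fitted with limma 3.58.1 (R 4.3.3, trended variance) on log2(FPKM + 0.1), with 1 mean for each of 10 groups and 20 residual degrees of freedom. Contrasts were S62A minus SH-EP and S62A minus the mean of the other 3 MYCN lines, in DMSO, two-sided, with Benjamini-Hochberg adjustment over 11575 genes. FPKM carry no read counts, so no count test and no counting interval was used. Spike-in scaling used the 55 of 92 spike-ins that averaged 1 FPKM or more. On simulated data of 11575 genes for S62A against SH-EP, 79% of 100 genes with a true log2 change of 1 and 97% of 100 with 2 were recovered, and 7 unchanged genes were called. Only these genes were changed in the simulation, whereas 54.3% were called in the data. Its noise was independent between libraries, with no effect of library pool or spike-in amount, so it does not cover those limits. Correlations between libraries of a group were 0.931 to 0.949 in S62A and 0.938 to 0.953 in SH-EP.

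Gene lists and members were chosen with earlier results of these data known, and lists are described by counts and medians without a test. Named genes were MYCN, MYC and the MAX network, and members of each list with the largest called changes or highest levels. To these were added the 15 highest and 15 lowest called changes with non-overlapping libraries and a mean of at least 5 FPKM in the higher group. The last were the 8 highest and 8 lowest called differences from the other MYCN lines, outside all 9 of their libraries and with the same minimum level. Symbols of short or multicopy RNAs were left out of the ranking. Some genes that this rule or a list covers are not reported here. Gene positions are from GENCODE on GRCh37 and promoter sequences from RefSeq on GRCh38.p14. Alternatives were other pseudocounts and filters, spike-in scaling, centring, smaller fits, a fold threshold and leaving out single libraries.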

Additional observations from a re-analysis of the deposited data

Results flagged for a closer look

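Differences between S62A and the other MYCN lines in DMSO were tested by a direct limma contrast with the mean of the WT, T58A and T58A S62A lines, and 1760 genes were higher and 2019 lower in S62A at a Benjamini-Hochberg adjusted p under 0.05. The 16 genes below had the largest differences among genes chosen for passing that threshold and for 3 S62A libraries outside all 9 libraries of these lines. Their passing and their lack of overlap were thus conditions of the choice and no separate support.

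On the log2 scale, S62A was above the other lines by 6.81 in CGA, 2.77 in PMEPA1, 2.15 in MAGEA11, 2.07 in SCG2, 1.94 in EPHB6, 1.93 in ALDH1A1, 1.88 in TGFA and 1.72 in POSTN. The size for CGA rests in part on the 0.1 FPKM added before logs. CGA was at 0 in every T58A S62A library, at most 1.06 FPKM in T58A and 23.1 to 25.3 FPKM in WT. S62A was below the other lines, with differences of −4.97 in ECSCR, −3.91 in CDC42EP1, −3.88 in PDLIM1, −3.73 in RAB34, −3.53 in SLIT2, −3.22 in TUBA1C, −3.18 in PTPN7 and −3.16 in CSPG4. The level of MYCN RNA was also lower in S62A than in these lines, by −0.97 on the log2 scale, and its part in these differences was not tested. Each line is a single stable line, so a difference between lines and an effect of the mutation cannot be told apart.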

How the results depend on the processing

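No paired analysis was possible because the numbers of the table's columns do not match the replicate numbers of the labels. Depth limits low genes, as the total reads behind an FPKM value are unknown. Against SH-EP, the counts of 3583 higher and 2708 lower genes stayed within 1.5 times under other pseudocounts, filters, centring, smaller fits and robust estimation, and ranged from 3219 to 3341 and from 2443 to 2498 without any single library. Against the other MYCN lines, where 1760 were higher and 2019 lower, these ranges were 1322 to 1890 and 1566 to 2179. When genes also had to change 1.5-fold or more, 1358 were higher and 1463 lower against SH-EP, and 309 and 512 against the other lines, since fewer genes can pass both criteria. With spike-in scaling, 44 were higher and 11006 lower against SH-EP, and 35 and 10527 against the other lines.

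Of the named genes, 61 had a positive change from SH-EP as deposited and a negative one with spike-in scaling. Their values in log2 units with spike-in scaling were GATA3 −1.87, COL7A1 −1.78, GATA2 −1.65, MAX −1.62, CIRH1A −1.52, CSPG4 −1.47, KRT8 −1.47, BAX −1.46, POSTN −1.45, CCNB1 −1.43, MTHFD1 −1.42, PCNA −1.34, DHODH −1.32, MCM7 −1.28, FOSL1 −1.28, UTP18 −1.25, EBNA1BP2 −1.24, PPAT −1.22, MGA −1.21, RUNX1 −1.19, COL27A1 −1.18, EIF3B −1.16, UTP20 −1.16, MNT −1.15, PTPN7 −1.12, LDHA −1.09, BID −1.07, ZNF217 −1.07, HMGA1 −1.06, MDM2 −1.04, PAICS −1.02, NCL −0.98, PSAT1 −0.96, SLC16A1 −0.94, MTHFD1L −0.94, ANKRD1 −0.91, PRIM1 −0.90, HSPE1 −0.89, MRPS28 −0.88, CGA −0.88, AURKA −0.87, MXD1 −0.84, NPM1 −0.76, WDR43 −0.74, DDB2 −0.73, MXI1 −0.70, RRP9 −0.69, SLC38A1 −0.69, DDIT4 −0.69, AEN −0.51, ATF3 −0.49, CHGB −0.48, CCNE1 −0.47, HK2 −0.46, IGF1R −0.45, POLR3G −0.45, LIN28B −0.39, EGR1 −0.37, ODC1 −0.30, DUSP4 −0.17 and TUBA1C −0.13. The scaling lowers every gene of the S62A libraries together, by its construction. With it, the rises of IGF2 (0.07), MAGEA11 (0.46), RAB34 (1.12) and RARRES2 (1.45) were no longer past the threshold. The calls of GATA2 (0.27 to 0.31), SCG2 (−0.16 to −0.14) and CSPG4 (0.20 to 0.35) against SH-EP were lost without some single libraries. For GATA2 these were S62A library 0 and SH-EP libraries 1 and 2, for SCG2 S62A libraries 0 and 2 and SH-EP libraries 1 and 2, and for CSPG4 S62A library 1 and SH-EP libraries 0 and 2, numbered as in the table.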
